A study of Caenorhabditis elegans with 2 samples.

Results

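The regions described here are the rows of the authors' thresholded peak list that were strong in both replicates of a ChIP-seq experiment on CEH-82, a homeobox protein, in Caenorhabditis elegans. A row was taken when its summit lay within 100 bp of one of the strongest rows, by signal value, of the replicate 1 list and of one of the strongest rows of the replicate 2 list. From each replicate list as many of the highest rows were taken as the thresholded list holds. Of the rows of the thresholded list, 240 met both conditions (44.7%), and they are called members. The members were chosen by signal value, so their signal is given as a description and supports nothing. The other 297 rows comprised 61 that were strong in replicate 1 only, 35 that were strong in neither replicate, and the rest, strong in replicate 2 only. A further 8525 rows of the authors' pooled list, which overlap no thresholded row, are called remaining candidates.

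Chromatin was taken from whole second-stage (L2) larvae of strain OP212, males and hermaphrodites pooled, with 2 biological replicates in 1 group. The strain carries unc-119(ed3) III and ddEx58, an extrachromosomal array with eGFP-tagged ceh-82. Such arrays are not integrated in the genome, and the sources used here do not say what else ddEx58 carries, which promoter drives it or which cells express it. No untagged strain, second stage or second factor was compared, and a row can come from any tissue. Read counts are missing from the lists, which leaves the sequencing depth unknown, and the signal value is the authors' own score with no stated scale.

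Homeobox proteins bind DNA through a homeodomain, often at short AT-rich sites, and many of them specify cell types during development. ChIP-seq in whole worms maps where a tagged protein is crosslinked to chromatin, directly or through other proteins. In this animal the X chromosome also has its own regulator. The dosage compensation complex loads in hermaphrodites at recruitment elements on X (rex sites) and lowers the expression of genes along the chromosome. Many rex sites hold a motif called MEX, whose central letters are GCGCAGGG. No map of rex sites or of the complex was used here, and a match to these letters is only a match.

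Many of the members with the best ranks in both replicates were X rows with the letters GCGCAGGG or rows at autosomal promoters that share another word. The sequences of 4 sites of each kind are shown because these rows are among the strongest. They were read from the RefSeq assembly WBcel235, which is ce11. For X, the 4 members with GCGCAGGG that had the best worse rank, that is the larger of the ranks in the 2 replicate lists, are given on the strand that carries these letters, which are in capitals, with 20 bases to either side. The X member near K02D3.5, whose worse rank of 8 equals that of nspc-17, has no such letters and is not shown:
F20B6.9, chrX:4209246-4209293, minus strand: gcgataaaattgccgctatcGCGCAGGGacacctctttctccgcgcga
cest-16, chrX:6296528-6296575, plus strand: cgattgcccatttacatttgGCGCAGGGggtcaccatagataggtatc
tRNA gene WBGene00014538, chrX:11094206-11094253, minus strand: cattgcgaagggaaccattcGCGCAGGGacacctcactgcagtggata
nspc-17, chrX:14525880-14525927, minus strand: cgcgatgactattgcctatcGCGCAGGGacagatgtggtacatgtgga
The names are those of the nearest gene start, and only the nspc-17 site lies in a promoter window, which reaches from 1000 bp before an annotated start to 200 bp past it. The cest-16 site is in an intron, and the F20B6.9 and WBGene00014538 sites are intergenic.

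For the autosomes, the 4 promoter members with the best worse rank are given on the plus strand. Capitals mark GCGTGTT and AAGTGT or their reverse complements, AACACGC and ACACTT:
tasp-1, chrIII:10759189-10759306: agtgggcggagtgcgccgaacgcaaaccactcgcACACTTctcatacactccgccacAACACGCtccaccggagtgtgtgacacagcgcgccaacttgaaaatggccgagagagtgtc
rpl-3, chrIII:3867534-3867654: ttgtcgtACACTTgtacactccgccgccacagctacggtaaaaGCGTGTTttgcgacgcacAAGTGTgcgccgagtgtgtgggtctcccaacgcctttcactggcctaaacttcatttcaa
rpl-35, chrIII:7854622-7854742: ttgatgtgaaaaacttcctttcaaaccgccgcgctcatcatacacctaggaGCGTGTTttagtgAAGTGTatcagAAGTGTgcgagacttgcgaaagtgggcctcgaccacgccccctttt
cdc-48.1, chrII:10563529-10563649: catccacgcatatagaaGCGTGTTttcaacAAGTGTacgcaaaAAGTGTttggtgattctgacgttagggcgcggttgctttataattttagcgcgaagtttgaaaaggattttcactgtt
The summit is base 61 of each of these sequences, and no annotated exon is included. GCGTGTT and AAGTGT were read off these sequences, so their presence in all 4 is what led to them.

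The gene of the tagged factor was not among the members. No list, thresholded, pooled or per replicate, had a summit within 2000 bp of ceh-82 (II:1732232-1733291). At unc-119 (III:10902641-10908935), the gene mutated in this strain, an intronic row at III:10905190-10905453 had a pooled signal value of 29.3. Its rank was 813 in the replicate 1 list and 290 in the replicate 2 list, so by the rule it was strong in replicate 2 only. Replicate 1 had a stronger summit at this gene, at III:10905174, with a signal value of 10.8 and rank 235. That summit lay more than 100 bp from the summit of the row and was not matched to it.

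The signal values chose the members, and members were spread over a wide range of them. In the pooled list, members had signal values of 21.6 to 211 with a median of 38.4, against 21.1 to 53 and a median of 24.5 for the other rows. In replicate 1 the members ranged from 8.42 to 73.5 (median 13.3), against 2.38 to 19.1 (median 6.89) for the 252 other rows with a summit there. In replicate 2 they ranged from 14.5 to 143 (median 24.4), against 5.22 to 47.1 (median 17.5) for 291 other rows. The ranges overlap in the pooled list and in each replicate. The lowest row taken from each list, where the rule stops, had 8.37 in replicate 1 and 14.5 in replicate 2.

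Each of the 50 rows with the highest pooled signal was a member, as were 93 of the first 100 and 163 of the first 200. The first row that was not a member had pooled rank 64, and the lowest member had rank 505. Only 56 of the 240 members ranked within the first 100 of both replicate lists. The significance deposited for each row spans a narrow range, with −log10 q-values of 2.46 to 2.93 over the thresholded rows. It stood at the maximum of 2.93 for 236 of 240 members and for 193 of 297 other rows. Rows below the maximum were thus mostly other rows.

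**Figure D1:**
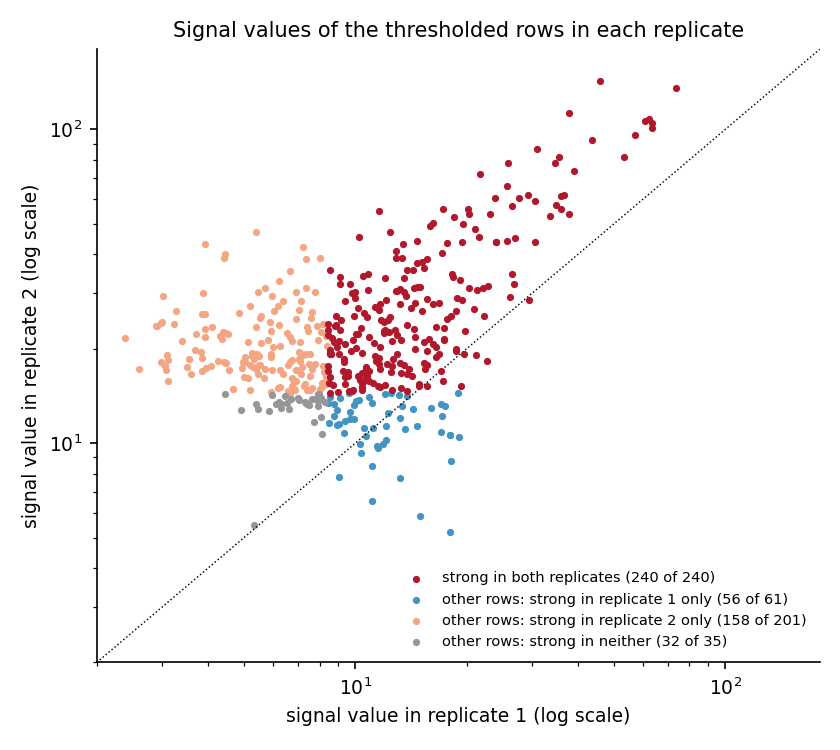
Signal value in replicate 1 (x axis, log scale) and replicate 2 (y axis, log scale) of each thresholded row with a summit within 100 bp in both replicate lists, with members in red and equal values on the dotted line. The 240 members begin sharply where the rule cuts, at 8.37 and 14.5, and 8 of them lie below the line.

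Replicate 2 gave the higher signal value at nearly every member. The log2 ratio of replicate 1 to replicate 2 had a median of -0.87 with an SD of 0.49 over the 240 members, and a range of -2.24 to 0.35. Replicate 1 was higher at 8 members. Over the 246 other rows with both values the median was -1.38 and the SD 0.99. This narrower spread is partly set by the rule, which asks for a high value in each replicate. The median gap between the summits of the replicates was 21.5 bp at members and 26 bp at other rows, and 210 members had a gap of 50 bp or less. Closeness is also set by the matching, which takes only summits within 100 bp of the row's summit in both sets. The 51 other rows without such a summit in both replicate lists are left out.

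The members with the lowest ratio of replicate 1 to replicate 2 were at iff-2, sls-2.2 and the snoRNA gene Y53F4B.47. At iff-2, a gene for initiation factor eIF5A, the signal value was 11.6 in replicate 1 and 54.8 in replicate 2, a log2 ratio of -2.24. At sls-2.2, which encodes an SL2 spliced leader RNA, it was 10.3 and 45.5 in the same order (-2.15), and at Y53F4B.47 8.53 and 35.5 (-2.06). The highest ratios were at rpb-11, near K11D2.6 and at lin-9. The rpb-11 row, at a gene for a subunit of RNA polymerase II, had 19.4 in replicate 1 and 15.2 in replicate 2 (0.35). An intronic row upstream of K11D2.6, the nearest start, had 22.7 and 18.3 (0.31). The row at lin-9, which encodes a subunit of the DREAM complex, had 21.1 and 19.0 (0.15).

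The last members inside were C05B10.21 (worse rank 527), an intronic row near Y43F8B.26 (534) and swsn-3 (535), a gene for a subunit of the SWI/SNF remodelling complex. Their signal values were 8.42, 8.97 and 8.56 in replicate 1 and 23.9, 14.5 and 14.5 in replicate 2. The first rows outside were near linc-151 (538), Y18D10A.4 (539) and F09C8.4 (540), with 12.5, 9.62 and 18.9 in replicate 1 and 14.5, 14.4 and 14.4 in replicate 2.

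The 12 members with the best worse rank comprised 7 on X and 5 at autosomal promoters. The highest was the row at tasp-1 (III:10759170-10759324), which encodes a threonine aspartase, with 73.5 in replicate 1, 135 in replicate 2 and 211 in the pooled list, ranks 1 and 2. Next came rpl-3 (III:3867508-3867629), which encodes a protein of the large ribosomal subunit, with 62.2 in replicate 1 and 108 in replicate 2, rank 4 in each. Both sites were near the top of both lists. The other autosomal rows of the 12 were at ribosomal protein genes and at cdc-48.1, whose product extracts ubiquitinated proteins from complexes and membranes. At rpl-35 (III:7854655-7854734) the signal values were 43.7 in replicate 1 and 92.4 in replicate 2, at cdc-48.1 (II:10563521-10563637) 37.7 and 112, and at rpl-15 (IV:654795-655058) 38.9 and 73.6.

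On X, the intergenic row near F20B6.9 (X:4209240-4209324) had 60.8 in replicate 1 and 106 in replicate 2, rank 5 in each. The row near cest-16 (X:6296493-6296611) had 63.6 and 105, and that near WBGene00014538 (X:11094153-11094282) 63.3 in replicate 1 and 160 in the pooled list. These 3 are nearly equal in replicate 1. The nspc-17 row (X:14525864-14526017) had the highest replicate 2 value of all members, 143, with 45.8 in replicate 1. The remaining X rows of the 12 were near K02D3.5 (57.1 in replicate 1 and 96.3 in replicate 2), near gtr-1 (53.1 and 81.7) and in the window of ins-39 (35.5 and 81.6), an insulin-like peptide gene. Of the 7 X rows, only those of nspc-17 and ins-39 lay in a promoter window.

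Members sat just upstream of gene starts, and the other rows did so almost as often. A summit in a promoter window was found for 190 of 240 members (79.2%), 228 of 297 other rows (76.8%) and 42.7% of the remaining candidates. Starts on both strands lay around 99 members (41.2%), 107 other rows (36.0%) and 10.5% of the candidates. These differences between members and other rows are smaller than those between the replicates themselves. Among the rows taken from each replicate list, 67.8% were in a promoter window in replicate 1 and 76.4% in replicate 2, and 28.5% and 35.2% had starts on both strands. The difference in starts on both strands, 5.22 percentage points, turned to -2.76 where only replicate 2 was required to be strong. No test was made of shares over rows, which are regions of 1 experiment and not replicates.

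Outside promoter windows, exons held 7 members (2.92%), introns 17 (7.08%) and intergenic sequence 26 (10.8%), against 6 (2.02%), 30 (10.1%) and 33 (11.1%) of the other rows. The window of a protein-coding gene held 162 members (67.5%) and 185 other rows (62.3%). In these windows the median summit lay at -185.5 bp from the nearest coding start for members and at -197 bp for other rows, and 97.5% and 93.0% were upstream. Base composition was alike, at 46.5% ± 6.90 GC for members and 46.9% ± 6.96 for other rows (SD over rows, in windows reaching 100 bp to either side of the summit), against 38.3% in the remaining candidates.

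**Figure D2:**
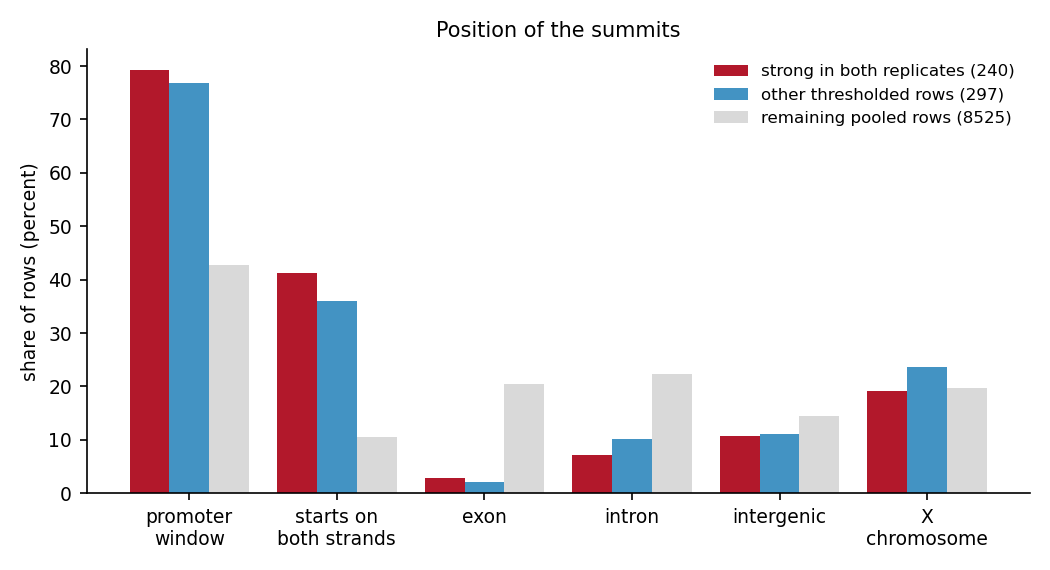
Share of rows (y axis, percent) by position of the summit for 240 members (red), 297 other thresholded rows (blue) and 8525 remaining candidates (grey); each bar is a share of its own set. Members and other rows are close in every class, for example 79.2% and 76.8% in promoter windows, and both stand apart from the candidates at 42.7%.

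**Figure D3:**
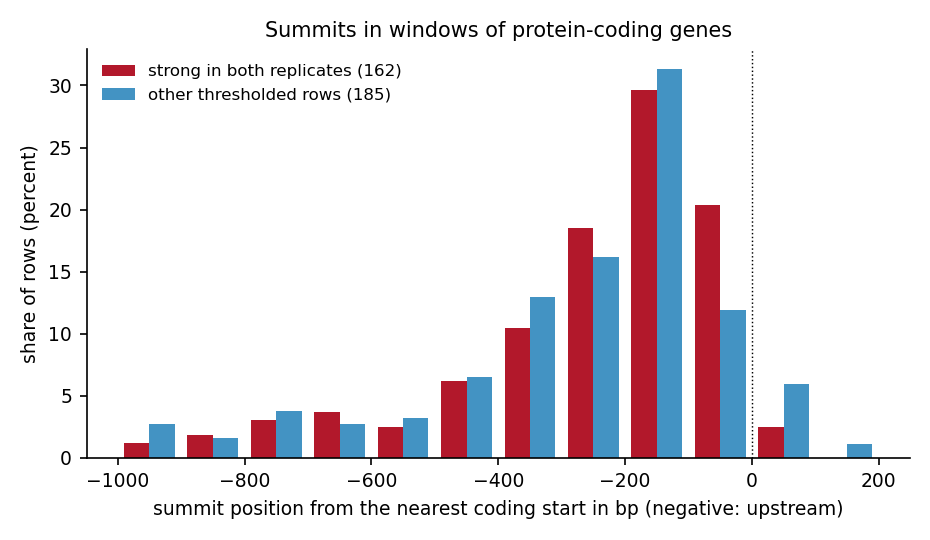
Distribution of summits around the nearest start of a protein-coding gene (x axis, bp in steps of 100, negative upstream) as a share of rows (y axis, percent), for the 162 members and 185 other rows in such windows. Both peak within 200 bp upstream of the start, with medians of -185.5 and -197 bp.

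Chromosome X held 46 members (19.2%), 70 other rows (23.6%) and 19.7% of the remaining candidates. The members' share minus that of the other rows, -4.4 percentage points, turned to 3.44 with the 250 highest rows of each replicate list and to 0.74 where only replicate 1 was required to be strong. Membership also differed by where the X rows lay. Of the 81 X rows in promoter windows 27 were members (33.3%), and of the 35 X rows outside such windows 19 were members (54.3%). On the autosomes the order was the other way round, with 163 of 337 promoter rows (48.4%) and 31 of 84 rows outside promoters (36.9%) being members. Both pairs are to be read against the 44.7% of all rows. The X members outside promoter windows had a median pooled signal value of 86.9 (28 to 168), and those in promoter windows 39.6 (21.8 to 187). Their sequence also differed, with 40.8% ± 5.72 GC outside promoters and 52% ± 7.04 inside (SD, 19 and 27 rows).

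The letters GCGCAGGG occurred in 12 of the 46 X members (26.1%), in 3 of the 70 other X rows (4.29%) and in 6 of the 1681 remaining candidates on X (0.357%). The difference of 21.8 percentage points was 12.2 where only replicate 1 was required to be strong. With the 1000 highest rows of each list it was 11.8. It was 0.0988 as an equally weighted mean over 4 strata of pooled signal in the range that both sets share. These strata held only 1, 3, 10 and 11 X members, so that mean is imprecise and says little. Both strands were searched, to 100 bp on either side of the summit. Of all windows of this width laid end to end along X, 0.0851% held the letters. On the autosomes 1 of 194 members held them, at the snRNA gene R07E5.16 on III, and 0 of 227 other rows. Of the 12 X members, 9 lay outside promoter windows and 3 inside.

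The X members with GCGCAGGG were among the strongest rows. They were 8 of the 10 X members with the highest pooled signal. Their median pooled signal value was 115 (28 to 187), against 39.7 (21.8 to 156) for the 34 X members without the letters, and the groups overlap. At 9 of the 12 the letters lay within 20 bp of the summit. In 6 they were preceded by ATC, as at F20B6.9 and nspc-17 above, in 8 by TC, and in 9 they were followed by A. In 4 of the 12 the window held the letters more than once.

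The X chromosome as a whole has 81 occurrences of GCGCAGGG, 4.57 per Mb, against 2.82 per Mb on the autosomes. Only 16 of the 81 lay within 100 bp of a member's summit, and 19 within 100 bp of any thresholded summit. The letters alone therefore did not mark a site as a row of the list.

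The presence of GCGCAGGG goes with signal, which chose the members. There were 63 members above the highest value of any other row, 53, and 21 of these were on X, 10 of them with the letters. In the range of 21.6 to 53, which members and other rows share, 2 of 25 X members and 3 of 63 other X rows held them. In that range the letters were in few rows of either set. Both shares were still above the 0.357% of remaining candidates on X and the 0.0851% of windows along X. Among the X rows taken from a replicate list that were not at a member, 1 of 88 held the letters in replicate 1 (1.14%) and 3 of 62 in replicate 2 (4.84%).

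The strongest X members were not all of this kind. The row near K02D3.5 (X:13700790-13700944), with a pooled signal value of 156, held no exact match in its window, nor did the intergenic rows near F55G7.5 (94.8), ZK899.10 (94.3) and fbxb-58 (92.4), which were singled out after their values were seen. An exact search of 8 letters does not find variants of a motif.

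**Figure D4:**
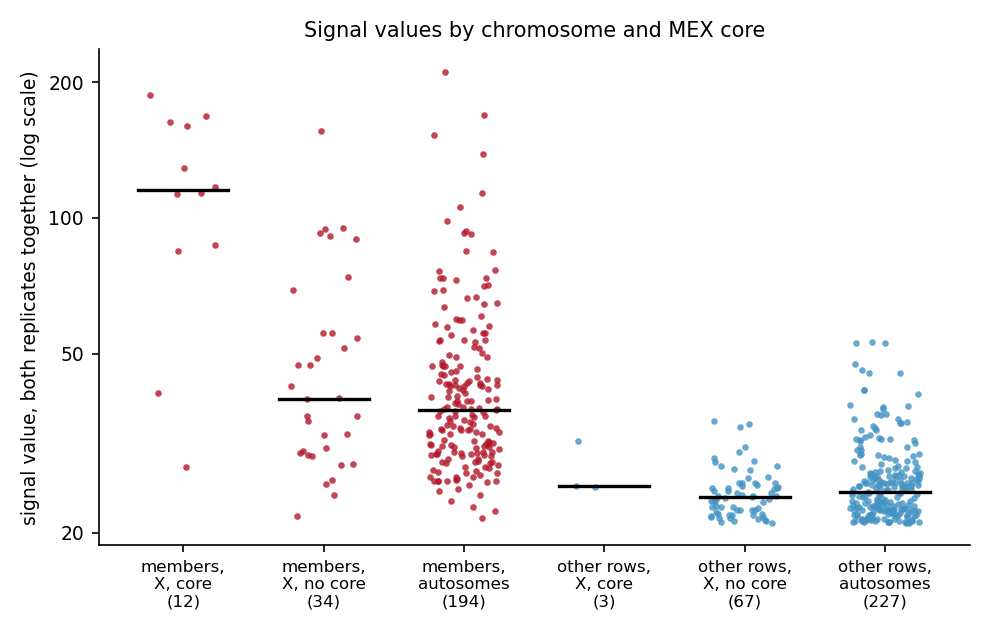
Pooled signal value (y axis, log scale) of each thresholded row by set, chromosome and presence of GCGCAGGG (MEX core) on X, members in red and other rows in blue, with the median as a line. Of the 12 X members with the core 10 lie above every other row, while 2 lie within the range of the other rows.

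The word GCGTGTT, read off the autosomal promoters above, was in 23 of 194 autosomal members (11.9%) and 6 of 227 other autosomal rows (2.64%). It was in 1.67% of the remaining autosomal candidates and in 1.01% of windows laid end to end along the autosomes. The difference of 9.21 percentage points was 1.51 where only replicate 2 was required to be strong and 1.09 over the same strata of signal. Since the word came from 4 of the members, the count without these is 19 of 190. Of the 20 autosomal members with the highest pooled signal 10 held it, or 6 of 16 without the 4 it was read from. At cox-5A, a gene for a subunit of cytochrome c oxidase, it occurred at 2 places. In the range of signal that both sets share it was in 11 of 152 members (7.24%) and 6 of 202 other rows (2.97%). On X 1 of 46 members held it.

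The word AAGTGT alone was less distinct, at 17.5% of autosomal members, 11.0% of other rows and 12.8% of candidates. Without the 4 members it was read from, the count was 30 of 190 (15.8%). In the shared range of signal it was in 15.1% of members and 11.4% of other rows. Of windows laid end to end along the autosomes, 11.9% held it. Both words together were in 9 autosomal members, 4 of which are those they were read from, which leaves 5 of 190 (2.63%), and in 1 of 227 other rows. In the shared range of signal they were together in 2 of 152 members and 1 of 202 other rows. Among the highest 20, the words stood together at tasp-1, rpl-3, cdc-48.1, rpl-35, rpl-15, the divergent pair Y17G9B.5 and rpl-20, and cox-5A.

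Homeodomain letters were found in a small share of the members. TAATTA was in 7.08% of members, 4.71% of other rows and 7.88% of the remaining candidates, TAATTG in 7.92%, 5.05% and 13.7%, and the ONECUT-like ATCGAT in 13.3%, 9.43% and 7.75%. On X alone, TAATTG was in 8 of 46 members (17.4%), 3 of 70 other rows (4.29%) and 14.6% of candidates. It was in 17.3% of windows laid end to end along X, so the X members were near that background. In such windows along all chromosomes, TAATTA was in 9.32%, TAATTG in 15.8% and ATCGAT in 6.5%. The ATCGAT difference of 3.91 percentage points was 16.6 over the same strata of signal, the lowest of which held only 5 members. The letters common to the whole thresholded list were also alike in both sets. GAGAGAGA was in 13.8% of members and 14.5% of other rows, against 3.96% of candidates. GAGACGC was in 20.8% and 23.9%, against 5.23%, and TGCGTCTC, whose letters overlap it on the other strand, in 16.7% and 21.5%, against 4.12%. The tRNA B box GTTCGANNC, the promoter element inside tRNA genes, was in 1.25% of members and 5.05% of other rows, against 2.45% of candidates.

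The members' promoter windows held 379 genes, of which 238 were protein-coding and 141 noncoding. That is 6.06% of the 6257 genes with any pooled summit in their window and 48.5% of the 781 with a thresholded one, and these are the shares to read each gene list against. A gene can share its row with others, since only 71 of 190 promoter members had a single gene in the window, so genes of a list are not independent. Lists were made by gene symbol or gene type.

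Genes of protein synthesis made up the largest coding group. Of 40 cytosolic ribosomal protein genes with a thresholded summit, 23 had a member (57.5%), or 36.5% of the 63 with any pooled summit, at 21 rows with a median signal value of 49.6. Beside rpl-3, rpl-35 and rpl-15, the highest were rpl-20 (25.9 in replicate 1 and 78.1 in replicate 2), rps-12 (29.3 and 61.6) and rps-1 (26.6 and 57.2). By symbol the list takes in rpl-24.2, which RefSeq names a ribosome biogenesis protein. The 17 genes with another row only included rpl-1, rpl-7 and rps-6. Translation factors had 5 of 9, which were iff-2 and the elongation factor genes eef-1A.2 (19.2 in replicate 1 and 33.2 in replicate 2), eef-2 (18.4 and 33.8), eef-1A.1 (9.65 and 32.3) and eef-1G (17.3 and 21.4). Of the aminoacyl-tRNA synthetases, which charge tRNAs, ears-2 and fars-1 had a thresholded row and 0 had a member. Mitochondrial ribosomal proteins had 2 of 4, mrpl-28 and mrpl-12.

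The chaperone lists stood somewhat above the 48.5%, but lists so short say little. Heat shock and DnaJ genes had 8 of 12 (66.7%), and the CCT chaperonin and prefoldin list 3 of 5. They include the cochaperone gene bag-1 (21 in replicate 1 and 26.8 in replicate 2), the mitochondrial chaperonin gene hsp-60 (13.6 and 30.3) and hsp-110 (9.08 and 33.9). Also among them were hsp-1 (10.5 and 34.2) and hsp-3 (11.7 and 20.2), genes for HSP70 proteins of the cytosol and the endoplasmic reticulum, and hsp-6 (17 and 17), for the mitochondrial one. In the second list were cct-1 (16.2 and 50.1), cct-8 (21.4 and 30.8) and pfd-1 (11.7 and 27.8). Each of these 9 rows was higher in replicate 2 or equal at this rounding.

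Chromatin modifiers had the highest share among lists with at least 10 genes at a thresholded summit, 12 of 15 (80.0%), although their signal was modest, with a median of 31.7. The highest values were at set-16 (18.5 in replicate 1 and 52.6 in replicate 2), which encodes a methyltransferase of the MLL family, set-21 (14.3 and 35.6), cbp-1 (19.5 and 28.6), a histone acetyltransferase, and lin-54 (13.2 and 31.0). With lin-9 and lin-53, lin-54 encodes a DREAM complex subunit. The set-4 row, at a gene for an H4 lysine methyltransferase, had 15.3 and 18.0. The set-16 row is shared with drr-2, the set-21 row with rpl-7A and the lin-54 row with rpl-12. The cbp-1 row is shared with R10E11.10 and the lin-53 row with nra-2. Further genes of the list with a member were mrg-1 (shared with spcs-2), chd-7 (with linc-91), rbr-2 (with ZK593.14 and ZK593.13), bet-2 and swsn-3. By nearest start fewer genes of this list had a member, as given below. The genes cec-5, mes-2 and set-26 had another row only. Of 6 dosage compensation and condensin genes with a pooled summit, 0 had a thresholded one, beside 781 of 6257 over all genes. So short a list says little.

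Genes of small RNAs split into groups that behaved differently. Of 51 snRNA and snoRNA genes with a thresholded summit, 32 had a member (62.7%), at 27 rows. Many of these lie beside a coding gene at the same row, for example K11H12.12 and K11H12.13 with rpl-15, and C06A1.9 with cdc-48.1. Genes for the SL2 spliced leader, which is joined to downstream genes of operons, were sls-2.1 (26.9 in replicate 1 and 32.1 in replicate 2), sls-2.4 (17.7 and 43.5), sls-2.2 and sls-2.8 (17.7 and 24.9). Such genes have near-identical copies, and the sources used here do not say how reads that map to several places were handled, so their values are uncertain. Transfer RNA genes went the other way, with 3 of 23 (13%) at 2 rows. Of the 16 thresholded rows with a tRNA gene in the window 2 were members, 3 were strong in replicate 1 only, 7 in replicate 2 only and 4 in neither.

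In the splicing list 5 of 9 genes had a member, led by snr-4 (12.9 in replicate 1 and 30.5 in replicate 2), a core protein of small nuclear ribonucleoproteins, and prp-19 (13 and 22.1). Respiratory chain genes had 4 of 10, cox-5A (27.7 and 60.6), cox-5B (23.9 and 43.8), nduc-2 and ndua-8. The proteasome list had 2 of 4, cdc-48.1 and rpn-3 (9.08 and 33.9), a row shared with hsp-110. Histones had 2 of 4, htz-1 (13.4 and 43), which encodes H2A.Z, and his-37 (12.9 and 39.0). The cytoskeleton list had 3 of 5, cap-2 (36.0 and 61.5), tba-2 (22.2 and 25.4) and tbb-2 (8.69 and 15.4). The last of these had the lowest pooled signal of any member, 21.6.

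Vesicle traffic genes were below the 48.5%, with 7 of 20 (35%), led by sec-61.G (30.7 in replicate 1 and 43.8 in replicate 2), a subunit of the protein channel of the endoplasmic reticulum, and dpy-23 (22.2 and 31.1), a clathrin adaptor subunit. Cell cycle genes had 3 of 9, rfc-4 (9.65 and 32.3), efl-1 (16.2 and 20.7), which encodes an E2F factor, and cdk-7 (15.4 and 17.3). The list of RNA polymerases and general factors had 2 of 5, taf-4 and rpb-11, and nuclear transport 1 of 5, npp-14. The mitochondrial import list had 1 of 2, but its member gene tim-1 is named in RefSeq as a timeless homolog and not an import protein.

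A thresholded summit was found at 2 of 11 homeobox genes and 4 of 45 nuclear hormone receptor genes with a pooled one. For other transcription factors it was 5 of 22, beside 781 of 6257 over all genes. Lists this short say little. Regulators such as efl-1 and lin-54 are counted in the lists above. Homeobox genes had 0 of 2, ceh-38 and ceh-39 having another row only. Nuclear hormone receptors had 1 of 4, nhr-1 (11.7 in replicate 1 and 17.2 in replicate 2), and other transcription factors 2 of 5, cebp-1 (20.3 and 31.3) and atf-6 (9.0 and 21.1). The only listed neuropeptide or insulin gene with a thresholded summit, ins-39, had a member. Of 19 collagen and cuticle genes with a pooled summit, 0 had a thresholded one, beside 781 of 6257 over all genes. So short a list says little. Of the 238 coding genes with a member, 149 were in none of the 26 lists.

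**Figure D5:**
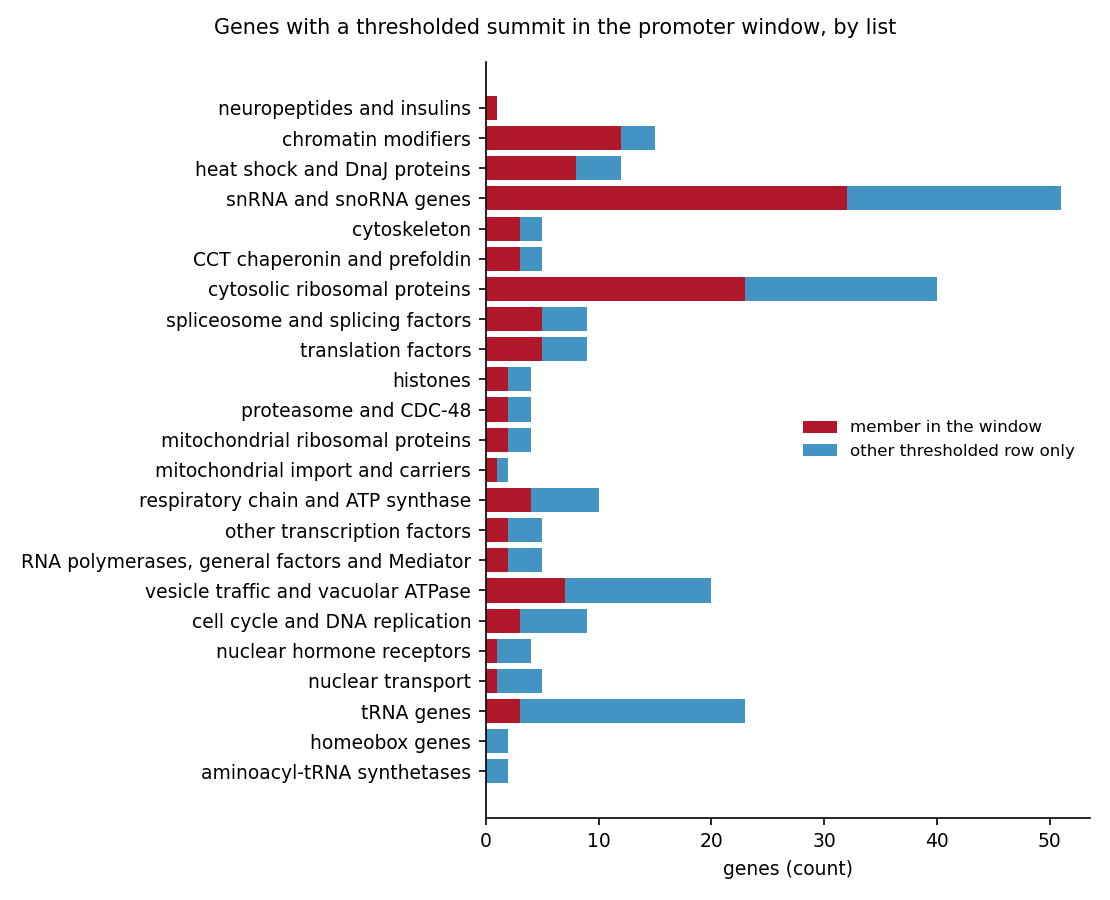
Genes with a thresholded summit in the promoter window (x axis, count) in each list reported that has any, split into genes with a member (red) and genes with another thresholded row only (blue), ordered by the share with a member. Chromatin modifiers (12 of 15) and heat shock genes (8 of 12) stand high and tRNA genes (3 of 23) low, beside 48.5% over all genes.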

How the data were processed

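The eGFP-tagged factor was precipitated from L2 larvae in 2 biological replicates in 1 group and sequenced, with fragments of 150 to 350 bp per the labels. The labels' text describes alignment, region calls by the authors against a control, first per replicate and then on pooled replicates, and selection of pooled regions past an irreproducible discovery rate threshold. The sources used here do not name the aligner, caller or threshold or say how duplicates were treated, and the control was not analysed here. The signal value is a score deposited by the authors as their caller gave it. The significance is deposited as a −log10 q-value. No counts are given, so no precision from depth can be stated.

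From the ce11 lists, summits (1-based) were matched within 100 bp and annotated with Ensembl release 115 genes. Sequence came from RefSeq WBcel235, searched on both strands in 201 bp windows for 24 motifs and 2 added words. Gene names and products came from Ensembl and RefSeq. The chemoreceptor list is not reported here. Members, lists and motifs were chosen with earlier results of these data known. Counts and shares are described without tests, because rows are not replicates and were chosen by signal. Genes were named by rule: the tagged gene and unc-119, the 12 members with the best worse rank, up to 6 genes per list by pooled signal, the 3 members inside and 3 rows outside the edge, and the 3 highest and 3 lowest replicate ratios; others named were chosen after their values were seen. Alternatives were other distances, list lengths, windows and builds, strata of signal, and each replicate alone. The rule, window and motif searches were tested on simulated data and recovered what was planted. Python 3.11.15, numpy 2.4.6, pandas 2.3.3 and matplotlib 3.10.9 were used.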

Additional observations from a re-analysis of the deposited data

How the results depend on the processing

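The number of members fell to 128 with the 250 highest rows of each replicate list and was 301 to 441 when 1 replicate alone was required; other distances, 1000 rows, overlap of intervals and build ce10 gave 215 to 333. With the 250 highest rows the X share of members exceeded that of other rows by 3.44 percentage points, and with replicate 1 alone by 0.74, against -4.4. With 4 strata of pooled signal weighted equally, the lowest of which held only 5 members, the share with GCGCAGGG in members minus that in other rows was -0.15 points over all rows (4.41 without strata) and 0.0988 on X (21.8 without), and that of GCGTGTT on autosomes 1.09 (9.21 without). With 1 replicate alone that of GCGTGTT was 1.51 to 10.4 and that of GCGCAGGG on X 12.2 to 16.5; with 1000 rows that of GCGCAGGG was 11.8. The strata gave -1.85 for TAATTG and 16.6 for ATCGAT, and windows reaching 200 bp to either side -5.72 for GATA. These values depend on how signal, which chose the members, was held equal. Further causes were not tested. On X the 4 strata held only 1, 3, 10 and 11 members, so the mean there is imprecise. Genes taken by nearest start numbered 235 in place of 379. Ribosomal protein genes numbered 10 in place of 23 and chromatin modifiers 4 in place of 12. Each member then counts for its nearest gene only, also where it lies outside promoter windows. Shares of thresholded genes were not computed for this setting. The alternatives for the 2 words on X or autosomes and for the replicate ratio were chosen after seeing the data. Over the alternatives run, the promoter difference ranged from -0.533 to 6.95 points, that of starts on both strands from -2.76 to 9.71 and that of GC from -1.11 to 0.668, so none of these 3 kept its direction throughout. No paired analysis was possible because the series holds 1 group.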

Other observations

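One X member, at F09A5.11, chosen after its values were seen, had the microRNA genes mir-54, mir-55 and mir-56 in its window, with a signal value of 19.8 in replicate 1 and 22.7 in replicate 2.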
